A study of Caenorhabditis elegans with 2 samples.

Results

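Peaks of DSC-1-GFP occupancy at snoRNA and snRNA genes were chosen by position alone. A peak belonged to the set when its summit lay within 1000 bp of the annotated start of any snoRNA or snRNA gene, and summits within 500 bp of a tRNA gene start were left out. Of 6283 reproducible peaks, which the authors selected by the irreproducible discovery rate (IDR) between replicates, 197 met this rule (3.14%, exact 95% interval 2.72 to 3.6%). The tRNA clause removed 2 of 199 peaks, one of them at the SL2 RNA gene sls-2.9. The distance to the nearest start reached 997 bp inside the limit, with 10 members in the outermost 100 bp, and 5 further peaks lay in the next 100 bp outside it. In all, 165 members had only snoRNA starts in reach, 31 only snRNA starts and 1 both, and the nearest genes were 162 different genes.

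The data are ChIP-seq with an anti-GFP antibody from whole Caenorhabditis elegans larvae of strain OP522, which carries unc-119(tm4063) III and the transgene wgIs522, with GFP-FLAG at the C terminus of DSC-1. DSC-1 belongs to the paired-like homeodomain transcription factors. All animals were hermaphrodite L1 larvae, taken 6 hours after synchronization by starvation following bleaching. There was 1 group with 2 biological replicates and no second condition. The labels also name a control, not analysed here, so occupancy by DSC-1 and enrichment that any GFP immunoprecipitation would give at these genes cannot be told apart. Signal from whole larvae likewise does not show which cells were occupied.

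Small nucleolar RNAs guide the chemical modification of ribosomal RNA. Box C/D snoRNAs direct methylation and box H/ACA snoRNAs direct pseudouridylation. Spliceosomal snRNAs form the core of the splicing machinery, and in nematodes the SL1 and SL2 RNAs donate the leaders that are trans-spliced onto messenger RNAs, with SL2 serving mainly the downstream genes of operons. Independent snRNA genes are transcribed from short promoters with a proximal sequence element ahead of the start, which the SNAPc complex recognises, whereas many snoRNAs are processed from the introns of host genes.

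The sequences below belong to 12 of the strongest members whose summit sat within 100 bp ahead of the RNA start, and are shown because a pair of short words recurred in 5 of the 12. Each runs from 50 bases before to 50 bases after the summit, read on the strand of the RNA gene from the ce11 assembly, with every AACCC, TGTC and TATATAA on that strand in capitals. The snoRNA gene Y53F4B.47 (chrII:15025926-15026026, minus strand), the snRNA gene W05B2.8 (chrIII:10989595-10989695, plus strand), the SL2 RNA gene sls-2.8 (chrIII:12250357-12250457, plus strand), the U1 snRNA gene sup-6 (chrII:12944943-12945043, minus strand) and the snoRNA gene ZK994.7 (chrV:8500476-8500576, plus strand) all held AACCC followed after 6 bases by TGTC. In W05B2.8 a TATATAA stood between that pair and the RNA start, which was base 85 of the window. The SL2 RNA genes sls-2.1 (chrII:5844775-5844875, plus strand) and sls-2.2 (chrII:5543510-5543610, plus strand) had peaks of ranks 20 and 30, counted from the strongest, without the spaced pair. Their AACCC lay inside the RNA, since the RNA began at base 91 in sls-2.1 and base 89 in sls-2.2. The snRNA genes C52E4.8 (chrV:11980014-11980114) and F38E11.10 (chrIV:9444548-9444648) and the snoRNA gene C08D8.3 (chrV:8349015-8349115), all on the plus strand, held one of the words without the pair. TGTC alone is a common word: counted on both strands, it was within 50 bp of 53% of the IDR summits outside the set. The snoRNA genes Y47D3B.25 (chrIII:11454123-11454223) and M7.15 (chrIV:11083044-11083144), on the plus strand, held none of the words.
Y53F4B.47: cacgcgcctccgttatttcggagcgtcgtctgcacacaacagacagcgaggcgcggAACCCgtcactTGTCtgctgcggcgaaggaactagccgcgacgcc
W05B2.8: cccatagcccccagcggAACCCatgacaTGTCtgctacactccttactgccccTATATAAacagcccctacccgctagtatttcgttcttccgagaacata
sls-2.8: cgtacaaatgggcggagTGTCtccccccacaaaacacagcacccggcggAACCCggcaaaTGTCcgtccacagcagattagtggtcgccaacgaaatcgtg
sup-6: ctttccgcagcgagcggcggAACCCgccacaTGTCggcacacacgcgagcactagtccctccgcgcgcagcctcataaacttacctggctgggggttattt
ZK994.7: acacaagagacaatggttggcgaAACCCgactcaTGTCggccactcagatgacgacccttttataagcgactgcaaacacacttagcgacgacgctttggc
sls-2.1: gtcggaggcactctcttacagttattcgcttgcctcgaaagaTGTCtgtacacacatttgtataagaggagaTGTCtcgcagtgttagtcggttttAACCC
sls-2.2: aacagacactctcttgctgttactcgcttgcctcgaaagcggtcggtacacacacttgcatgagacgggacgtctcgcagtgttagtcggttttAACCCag
C52E4.8: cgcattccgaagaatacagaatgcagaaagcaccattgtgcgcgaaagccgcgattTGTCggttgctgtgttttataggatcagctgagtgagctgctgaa
F38E11.10: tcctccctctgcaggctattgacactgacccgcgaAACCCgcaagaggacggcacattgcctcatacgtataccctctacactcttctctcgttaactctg
C08D8.3: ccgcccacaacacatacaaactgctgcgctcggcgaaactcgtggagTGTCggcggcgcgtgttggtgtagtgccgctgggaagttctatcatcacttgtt
Y47D3B.25: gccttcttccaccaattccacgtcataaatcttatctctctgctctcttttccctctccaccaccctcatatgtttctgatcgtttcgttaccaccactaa
M7.15: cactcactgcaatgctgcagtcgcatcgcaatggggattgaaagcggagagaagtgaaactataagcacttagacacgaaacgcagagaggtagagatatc

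Summits gathered immediately upstream of the RNA start. Positions are relative to the nearest snoRNA or snRNA start, negative upstream, and their median was −49 bp (quartiles −132 and 32 bp). Within 100 bp upstream lay 90 of the 197 summits (45.7%, exact 95% interval 38.6 to 52.9%), against 7 in the first 100 bp downstream (3.55%, 1.44 to 7.18%). The other members lay farther upstream, over 100 and up to 1000 bp (55 peaks), or downstream (52 peaks, counting those 7). Among the 166 members nearest to a snoRNA gene 73 were just upstream, and among the 31 nearest to an snRNA gene 17 were. The just-upstream summits had a median position of −38 bp at snRNA genes (lowest −68, highest −16 bp) and −52 bp at snoRNA genes (lowest −100, highest −4 bp). Their median was −54 bp by the summits of replicate 1 and −49 bp by those of replicate 2, and the replicate summit was upstream of the start at 87 of 89 in replicate 1 and 89 of 90 in replicate 2.

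**Figure D1:**
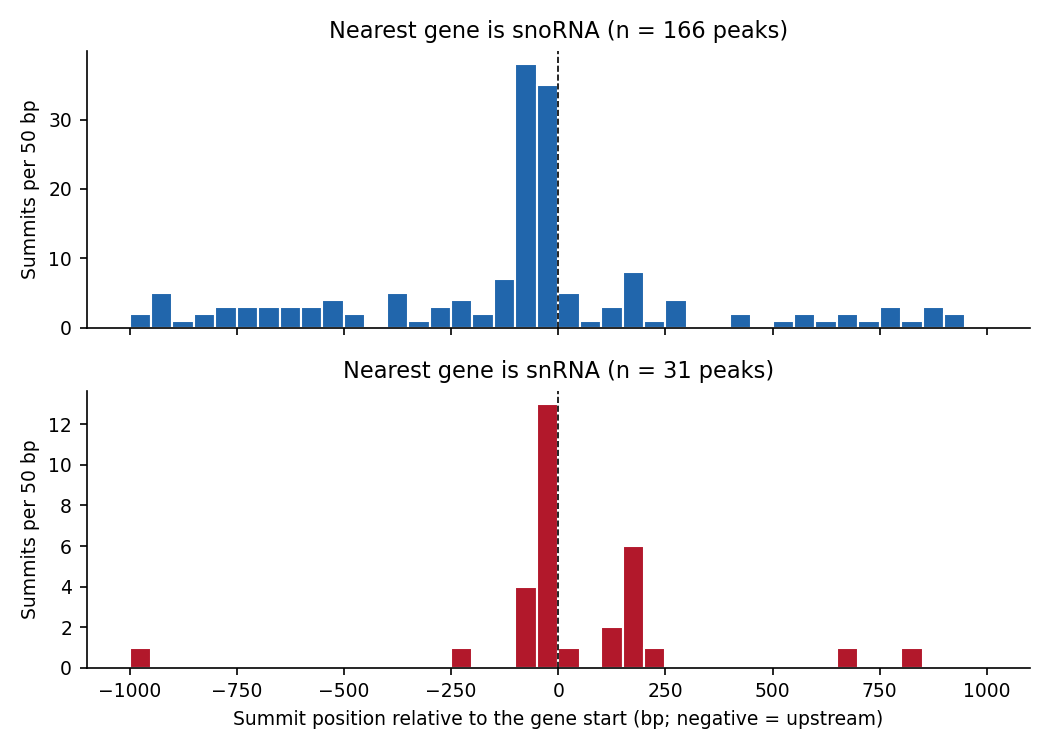
Position of each member's summit relative to the start of its nearest snoRNA (upper panel, 166 peaks) or snRNA gene (lower panel, 31 peaks), in bp with upstream negative. Bars count summits per 50 bp, the dashed line marks the RNA start, and in each panel the highest bar lies within the 100 bp just upstream.

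A smaller group of summits lay in the second 100 bp downstream of the start (19 members), and 14 of these were at genes that also had a summit just upstream. Neighbouring member summits up to 250 bp apart formed 21 pairs with gaps of 199 to 225 bp (median 202 bp). In 4 pairs both summits were deposited within the same peak interval, with gaps of 200 to 208 bp. No neighbouring pair was closer than 199 bp. The smallest separation that the peak caller allows is unknown here, and its part in this spacing was not tested.

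Counted over genes, summits just upstream were found at larger shares of snoRNA, snRNA and tRNA genes than of any other biotype drawn in the plot of biotypes. A reproducible summit lay within 1000 bp of 149 of 346 snoRNA genes (43.1%, exact 95% interval 37.8 to 48.5%) and 26 of 129 snRNA genes (20.2%), one of them only through a peak removed by the tRNA clause, which left 25 with a member (19.4%, 13 to 27.3%). The same share was 16.4% for protein-coding genes and 13.5% for all genes. Just upstream, 1 to 100 bp ahead of the start, a summit was found at 74 snoRNA genes (21.4%, 17.2 to 26.1%) and 18 snRNA genes (14%, 8.48 to 21.2%), against 2.11% of 19973 protein-coding genes and 1.89% of all 46890 genes. In the 100 bp downstream the shares were 1.73% of snoRNA genes, 0.775% of snRNA genes and 0.576% of protein-coding genes. tRNA genes, transcribed by RNA polymerase III, stood at 28.8% just upstream (176 of 612). Among microRNA genes 1.53% had a summit just upstream, and among piRNA genes 0.0976%. Nearby genes can share a summit, so these shares are descriptions.

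**Figure D2:**
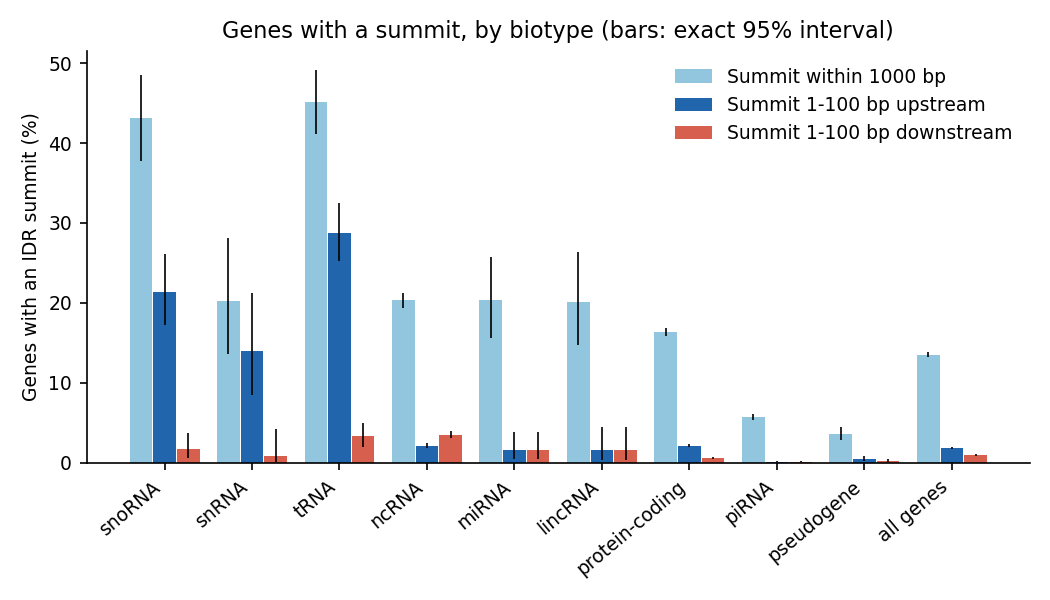
Share of genes of each annotated biotype, in percent, with a summit of the IDR list within 1000 bp of the start (light blue), 1 to 100 bp upstream (dark blue) or 1 to 100 bp downstream (red), with exact 95% intervals. Only snoRNA, snRNA and tRNA genes among the biotypes drawn have a dark blue bar above 10%, and their red bars stay below 4%.

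Members ranked high among all reproducible peaks, and the just-upstream members ranked highest. Ranks run from the strongest peak by the authors' signal, and a low rank percentile means a strong peak. The median rank percentile was 33.6 over the 197 members, against 43.7 for the 218 peaks near tRNA starts, 46.1 for the 2429 peaks in protein-coding promoter windows and 50.01 for all peaks. Just-upstream members had a median of 24.5, those farther upstream 52.1 and those downstream 54.1. Of the just-upstream summits 72 of 90 (80%) were in the stronger 50% of the list, and 10 members of any position were among the strongest 100 peaks.

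Both replicates gave similar orders. Among their strongest 6283 peaks, replicate 1 overlapped 186 members (94.4%, against 90.4% of all IDR peaks) and replicate 2 overlapped 191 (97%, against 92.2%). Ranks in the 2 full replicate lists had a Spearman correlation of 0.90 over the 193 members with a summit within 100 bp in both, a description, since the IDR filter keeps peaks whose ranks agree. For the just-upstream summits, the replicate summit lay within 25 bp of the IDR summit at 67 of 90 in replicate 1 and 79 of 90 in replicate 2. One disagreement was C28A5.7, an snRNA gene with rank 2323 in replicate 1 and 13755 in replicate 2.

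**Figure D3:**
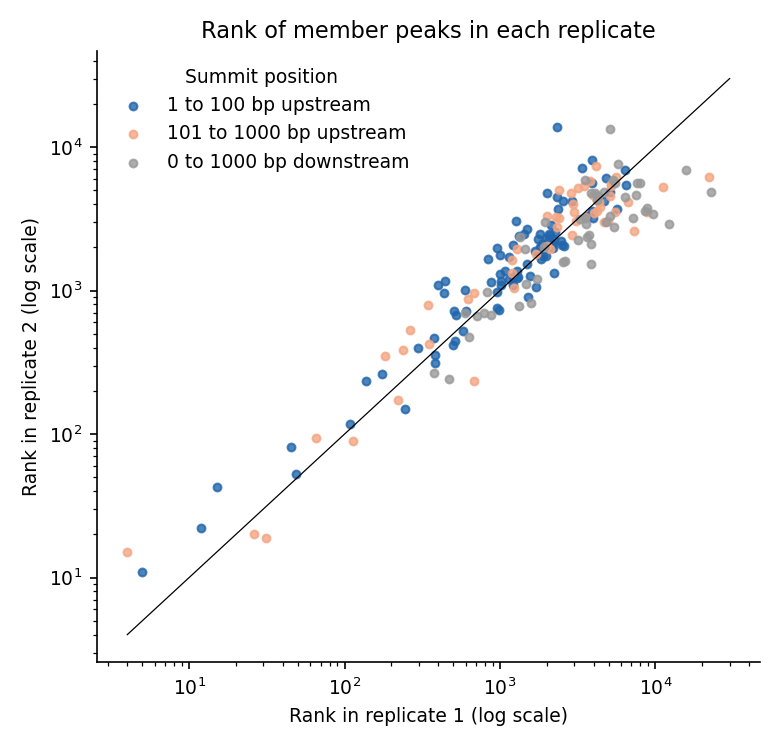
Rank of each member in the full peak list of replicate 1 (horizontal) and replicate 2 (vertical), both on log scales, for the 193 members with a summit within 100 bp in both lists, coloured by summit position. Points follow the diagonal of equal rank, and the strongest members have low ranks in both replicates.

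SL2 RNA genes held 3 of the 10 strongest members, including the strongest. The peak at sls-2.4, with its summit at −39 bp, had rank 8 in the IDR list and ranks 5 and 11 in replicates 1 and 2. It also lay in the promoter window of egg-5, a gene of egg activation. The peak at sls-2.1 (summit −40 bp) had rank 20, and ranks 12 and 22 in the replicates. The peak at sls-2.2 (summit −38 bp), whose window also took in sls-2.3, had rank 30, and ranks 15 and 43. All 4 genes of this near-identical group of 110 bases, sls-2.1 to sls-2.4, had a summit just upstream, but at sls-2.3 it was among the weakest members (rank 5957, replicate ranks 3913 and 8123). Of the remaining SL2 genes, sls-2.8 had rank 108 and replicate ranks 108 and 118, while sls-2.7 and sls-2.14 had ranks 3502 and 5254. In all, 7 of 18 sls-2 genes had a member just upstream (38.9%, exact 95% interval 17.3 to 64.3%) and 10 had one within 1000 bp.

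No summit lay at the SL1 RNA genes. None of the 12 sls-1 genes, which sit in a cluster on chromosome V, had a summit within 1000 bp in the IDR list, a share whose exact 95% interval reaches 26.5%. The nearest IDR summits on the 2 sides of the cluster were 574 kb apart, and those of the pooled, replicate 1 and replicate 2 lists were 126, 126 and 227 kb apart, with 0 summits between them. Of the sls-1 genes, 10 share at least 90% of their sequence. How reads from such copies were placed is unknown here and its part in this gap was not tested. Among the 20 annotated rRNA genes, 0 had a summit within 1000 bp in the IDR list, and 0 in the pooled list. The share with a just-upstream member was 15.4% for 104 snRNA genes with a near-identical copy and 8% for 25 single-copy snRNA genes. The 8% came from 2 genes, sls-2.8 and mir-1831, and the summit at mir-1831 was the one also counted at the snRNA gene sup-39. Among snoRNA genes the share was 46.7% for 15 with a near-identical copy and 20.2% for 331 single-copy genes.

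The spliceosomal snRNA families named here had from 0 to 4 copies with a summit just upstream. The U1 gene sup-6 (rank 210, replicate ranks 174 and 263) and the U1 gene sup-39 (rank 1338, replicate ranks 1553 and 1258) were the 2 of 13 genes of their family with a summit just upstream, at −26 and −28 bp. The sup-39 summit also lay at −35 bp from mir-1831, which the gene models annotate as an snRNA, so this 1 peak counts for both genes. W05B2.8 (rank 67, replicate ranks 45 and 81), inside the dynein heavy chain gene dhc-4, led a family of 22 genes of 93 to 102 bases, of which 4 had a summit just upstream. The others named for it were F54D8.7 (rank 810) and R07E5.16 (rank 2181). C52E4.8 (rank 178, replicate ranks 137 and 236), close to the Sm protein gene snr-4, was the only 1 of 5 in its family. F38E11.10 (rank 323), F32B5.9 (rank 599) and F38E11.11 (rank 4999) were the 3 of 12 genes in the C53B4.9 family. The family of F11A5.14, 19 genes of 185 to 187 bases, had 0 just upstream and 1 gene, F08G2.10, with a summit 233 bp downstream. SmY RNA genes, linked to trans-splicing, had 2 of 12 with a just-upstream member, at smy-2 (rank 587) and smy-3 (rank 3347), which the gene models list as snoRNA. The weakest SmY member lay 693 bp downstream of smy-4, with rank 22805 in replicate 1 and 4882 in replicate 2.

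At snoRNA genes, the share with a just-upstream summit differed with the sequence at the RNA's 3′ end. Where CTGA, the box D sequence of C/D snoRNAs, occurred in the last 12 bases with no ACA end, 34 of 63 genes had a member just upstream (54%, exact 95% interval 40.9 to 66.6%). Where ACA stood about 3 bases from the end, as in H/ACA snoRNAs, with no such CTGA, 14 of 67 did (20.9%, 11.9 to 32.6%). Where neither was found, 24 of 208 did (11.5%, 7.53 to 16.7%). Of the 8 genes with both, 2 did. Within 1000 bp the shares of the first 2 classes were 57.1% and 55.2%. By position relative to protein-coding genes, a just-upstream member was found at 38 of 130 snoRNA genes outside protein-coding genes (29.2%), 9 of 33 on the opposite strand of a host (27.3%) and 27 of 183 on the host's strand (14.8%). The classes overlap, and no test of their differences was made.

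**Figure D4:**
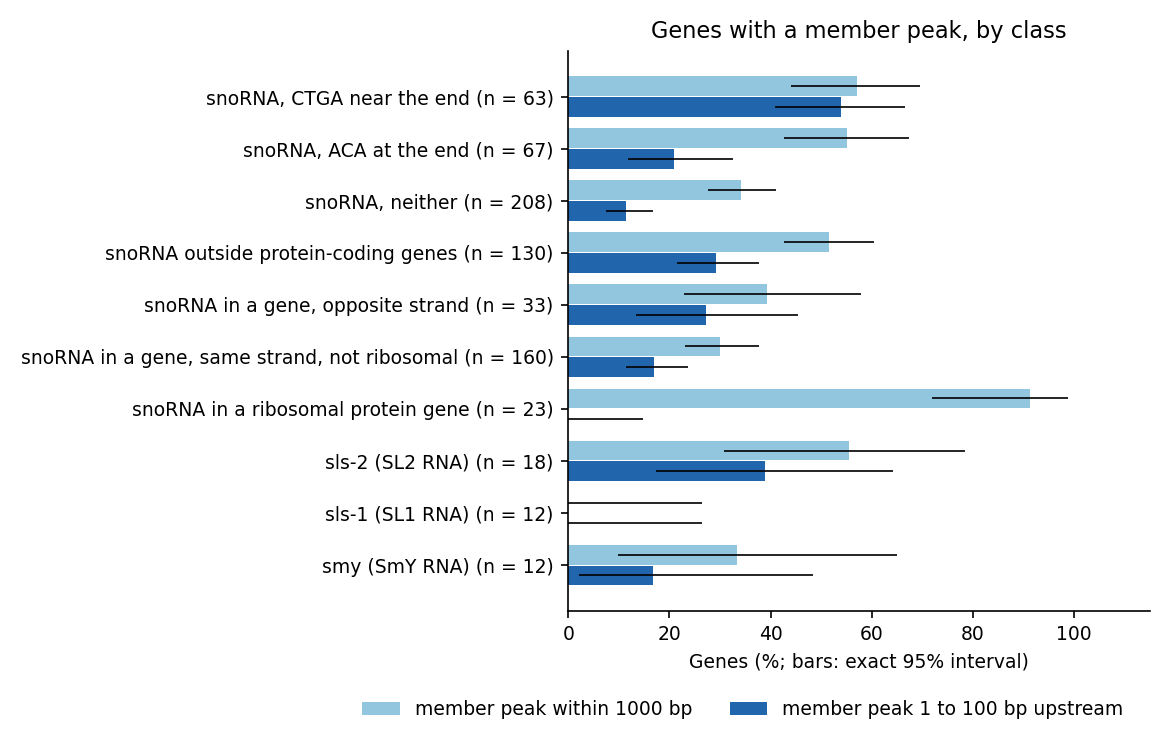
Share of genes, in percent with exact 95% intervals, with a member within 1000 bp (light blue) or 1 to 100 bp upstream (dark blue), by class of snoRNA, SL RNA or SmY RNA gene, without the 8 snoRNA genes that have both end sequences in the upper 3 classes. The dark bar is longest for snoRNAs with CTGA near the end (54%), and snoRNAs inside ribosomal protein genes have a light bar of 91.3% with a dark bar at 0.

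SnoRNA genes inside ribosomal protein genes, on the host's strand, made up a separate group. Of 23 such genes 21 had a member within 1000 bp (91.3%, exact 95% interval 72 to 98.9%) and 0 had one just upstream (upper limit 14.8%). Of 160 snoRNA genes inside other genes on the same strand, 48 had a member within 1000 bp (30%) and 27 had one just upstream (16.9%). For 15 members the nearest gene was inside a ribosomal protein gene. Of these 15 summits 14 lay in the promoter window of the host itself, from 1000 bp upstream to 200 bp downstream of its start. Some of the 14 were nearer to another protein-coding start, and others were nearest to the host's. The strongest was the peak ahead of rpl-15 and its snoRNAs K11H12.13 and K11H12.12 (summit −564 and −895 bp from them), with rank 23 in the IDR list and ranks 31 and 19 in replicates 1 and 2. Next came the peak at rps-12, which hosts F54E7.10 and F54E7.11, with rank 79 and replicate ranks 65 and 94. Its summit was at −159 bp from rps-12 and at −134 bp from ska-3. The summit at rps-29 was at −513 bp from the host and at −54 bp from snt-2. At rpl-7A the host was nearer, with −80 bp against −174 bp from set-21. Hosts other than ribosomal protein genes gave members of the same kind. The peak at C06A1.9, inside the gene of the AAA ATPase CDC-48.1, had its summit at −504 bp, rank 10, and replicate ranks 4 and 15. F54C9.12, inside the translation factor gene iff-2, had rank 90, with replicate ranks 113 and 89.

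Over all members 88 summits (44.7%, exact 95% interval 37.6 to 51.9%) lay in a protein-coding promoter window, against 38.7% of all IDR peaks. The share was 76.4% for members farther upstream, 35.6% for just-upstream members and 26.9% for downstream members. The just-upstream summit at Y53F4B.47 (−83 bp, rank 51, replicate ranks 49 and 53) was at −138 bp from the start of the cap methyltransferase gene cmtr-1. Another just-upstream summit, at F59C6.15 (−79 bp), had rank 165 and replicate ranks 244 and 150, and its neighbour in rank, the summit at W06H8.17 (−195 bp), farther upstream, had rank 166 and replicate ranks 221 and 174. Among the just-upstream members in no promoter window were ZK994.7 (rank 332, replicate ranks 296 and 400), Y37E3.20 (rank 353) and C08D8.3 (rank 427), all inside host genes on the same strand, and Y47D3B.25 (rank 463).

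The X chromosome held 8 of 197 members (4.06%, exact 95% interval 1.77 to 7.84%). That interval takes in the share of the 475 snoRNA and snRNA genes that lie on X (7.58%), to which the rule ties the members. Of all IDR peaks, 23.3% were on X. Among the X-linked members only M163.14 (rank 1105) and D2021.6 (rank 1511) had summits just upstream. The strongest X-linked member, near T27A8.8, had rank 21 and replicate ranks 26 and 20, but its summit was at −805 bp. Chromosome II held 50 members (25.4%), against 13.9% of IDR peaks and 18.3% of the genes.

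Sequence ahead of the RNA starts was examined without regard to peaks. In the 100 bp upstream of the 475 snoRNA and snRNA starts, the 8-base word found in the most windows on the gene's strand was CGGAACCC, in 51 windows (10.7%). It occurred in 31 of 129 snRNA and 20 of 346 snoRNA windows, against 5 of 19973 protein-coding and 0 of 612 tRNA windows. The word was picked for its count in the snoRNA and snRNA windows, so this contrast is not independent evidence. The first base of CGGAACCC had a median position of −62 bp (quartiles −64 and −60 bp). The pair AACCC, 6 bases, TGTC was found in 60 windows with a median of −59 bp, and TATATAA in 18 snRNA windows with a median of −30.5 bp. Most of these TATATAA windows belonged to 1 near-identical family, the 22 genes that include W05B2.8. Near-identical copies were counted as separate windows for every word. The proximal sequence element of snRNA promoters is known to lie in this stretch. A match is a description of the letters, not of a binding site.

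The words were also counted within 50 bp of each summit, on both strands. CGGAACCC was in 16 of 90 just-upstream windows (17.8%, exact 95% interval 10.5 to 27.3%), 0 of 107 other members, 0 of 218 tRNA peaks, and 4 of 6086 other IDR peaks (0.0657%), beside 0.0501% of protein-coding promoters of the same length. The spaced pair was in 22 of 90 (24.4%), against 5 of 6086. CGGAACCC and the pair were chosen from sequence ahead of these same genes, so their excess over other peaks is not independent evidence. TGTC alone was in 78.9% of just-upstream windows, 53% of other IDR peaks and 62.4% of tRNA peaks. AACCC alone was in 42.2%, 8.3% and 16.1% of these sets. TATATAA was in 5.56%, 1.64% and 1.38% of them, and in 4.11% of protein-coding promoters. Among the snoRNA and snRNA genes, a just-upstream summit was found at 16 of the 51 with CGGAACCC (31.4%, 19.1 to 45.9%). Without it the count was 76 of 424 (17.9%, 14.4 to 21.9%), and the 2 intervals overlap. Where a just-upstream summit and the pair were both present, the summit lay downstream of the first base of the pair by a median of 23.5 bp. A just-upstream summit was found at 23 of the 60 genes with the pair (38.3%, 26.1 to 51.8%), against 69 of 415 without it (16.6%, 13.2 to 20.6%). For TATATAA it was 4 of 24 genes with the word (16.7%, 4.74 to 37.4%), against 88 of 451 without it (19.5%, 16 to 23.5%). Most just-upstream summits were at windows without the pair.

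**Figure D5:**
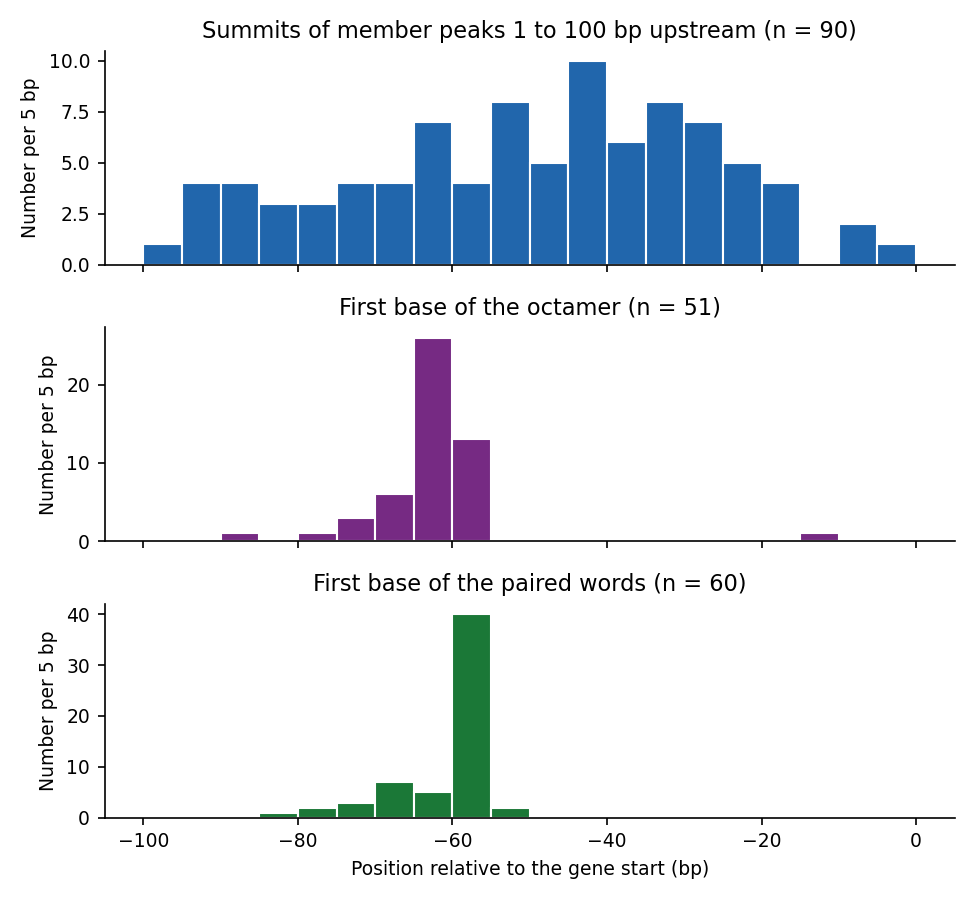
Positions, in bp relative to the RNA start, of the 90 just-upstream member summits (top), the first base of CGGAACCC (middle) and the first base of the spaced pair AACCC and TGTC (bottom) in windows upstream of the 475 snoRNA and snRNA genes, per 5 bp. The first bases of the words gather near −60 bp, and the summits spread to both sides, with most between that position and the start.

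TAAT was in a smaller share of members than of other IDR peaks, and over all members its share was near that of tRNA peaks. TAAT, the core that many homeodomains bind, was in 14 of 90 just-upstream windows (15.6%, exact 95% interval 8.77 to 24.7%) and 66 of 197 members (33.5%), against 57.9% of other IDR peaks, 69.9% of protein-coding promoters and 35.8% of tRNA peaks (78 of 218). TAATTA was in 0 of 90 just-upstream windows (upper limit 4.02%) and 2.03% of members, against 4.62% of other IDR peaks and 1.83% of tRNA peaks. TAAT followed after 2 bases by ATTA was in 1 of 197 members (0.508%), against 0.361% of other IDR peaks. The form with 3 bases between them was also in 1 member, against 0.624%. The windows also differed in base composition. Median GC was 53.5% just upstream, against 41.6% at other IDR peaks and 49.5% at tRNA peaks. Its part in the TAAT shares was not tested. GAGAGA was in 14.4% of just-upstream windows, against 21.1% of other IDR peaks, TTTTTT in 3.33% against 24.8%, TATAAA in 12.2% against 7.07%, and CACGTG in 2.22% against 4.16%. In windows 300 bp to the left and right of the members' summits, TAAT was in 58.9% and 66.5%, with median GC of 36.6% and 35.6%.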

How the data were processed

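Whole-larva ChIP-seq peak lists of 1 group with 2 biological replicates were used, all on ce11. The authors deposited, per the file headers and labels, 1 list for each replicate, 1 for the pooled replicates and 1 that passed their irreproducible discovery rate (IDR) step. The deposited signal value of each peak is the authors', its scale is not stated, and it served only to rank peaks within a list. The deposited −log10 q-value was not used. The sources used here name no aligner, peak caller or IDR threshold. Read depth is unknown, and p-values were not computed.

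Gene starts came from Ensembl release 115 (WBcel235), gene symbols from RefSeq (475 of 475 snoRNA and snRNA genes matched) and sequence from the same assembly. Python 3.11.15 with numpy 2.4.6, pandas 2.3.3 and scipy 1.17.1 was used. The routines for membership, summit positions, counts over genes, reverse strands and promoter windows were tested on simulated data. Those for words, gene classes, families and replicate overlap were not. Shares carry exact Clopper-Pearson 95% intervals, which cover counting error only. Genes and peaks are not replicates, so no test was made. Members named are the 15 strongest, the 3 strongest of each snRNA family and the 10 strongest with a summit within 100 bp of the start. Further members, among them 4 of the 12 whose sequence is shown, were named after their values were seen. Alternative distances, exclusions, peak lists and windows were tried. The members and lists were chosen with earlier results of these data known. The classes by box sequence, host gene and family, and the words AACCC, TGTC and TATATAA, were chosen after the positions or the most frequent words had been seen.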

Additional observations from a re-analysis of the deposited data

How the results depend on the processing

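Of 86 alternative values for 17 results, 56 stayed within 1.5 times the count, within the 95% interval of the share, or within 1 SD of the 2 single-replicate values for a median. Taking the stronger 50% of IDR peaks left 122 members, covered 30.3% of snoRNA genes and gave a median rank percentile of 38.4 within that list. The share of snoRNA genes with a member was 32.9%, 28.3% and 53.5% within 500, 250 and 2000 bp, and 28% where the snoRNA or snRNA start had to be the nearest gene start. The median rank percentile was 30 within 500 bp and 29.6 within 250 bp. The median summit position was −44 bp within 500 and 250 bp, −43 bp within 2000 bp and with the nearest start only, and ranged from −55 to −52 bp when 1 replicate was left out. With a reciprocal overlap of 50%, 71.6% of members were shared with replicate 1 and 82.7% with replicate 2, and 88.8% had a replicate 1 summit within 100 bp. The narrower promoter window (500 bp upstream to 100 bp downstream) held 27.4% of members. Word shares moved with the window. In windows reaching 100 or 25 bp to each side of the summit, TAAT was in 60.9% and 15.2% of members, TATAAA in 16.2% and 5.58%, GAGAGA in 27.4% and 7.61% and TTTTTT in 36.5% and 5.08%. With 25 bp, CGGAACCC was in 4.57%, and TAAT followed after 3 bases by ATTA in 0%, and that spaced word ranged from 0% to 0.515% with 1 replicate left out.

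No paired analysis was possible because the labels give 1 group only. Depth is unknown, so genes with no summit cannot be called unoccupied, and the deposited lists do not show how reads of near-identical genes were placed.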

Other observations

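In the pooled list of 30000 peaks, which the authors describe as peaks together with background, more genes had a summit 1 to 100 bp upstream than in the IDR list. The share was 26% of snoRNA genes in the pooled list (90 of 346), against 21.4% in the IDR list, and 19.4% of snRNA genes (25 of 129), against 14%. Over all genes it was 4.93% in the pooled list, against 1.89%, and over protein-coding genes 4.91%, against 2.11%, a larger relative difference than for snoRNA or snRNA genes. The snRNA family of F11A5.14, 19 genes of 185 to 187 bases, had 1 gene with such a summit in the pooled list and 0 in the IDR list. The C53B4.9 family of 12 genes had 6 in the pooled list and 3 in the IDR list. None of the 12 sls-1 genes had one in either list. These values came from a list with no reproducibility filter.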
